A study of Mus musculus with 4 samples.

Results

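Myeloid C-type lectin receptors are membrane proteins of monocytes, macrophages, dendritic cells and neutrophils that bind sugars and lipids of microbes and molecules from dying cells. Described here are 9 of their genes, Clec4d, Clec4e, Clec4n, Clec7a, Clec5a, Clec12a, Clec4a2, Mrc1 and Clec10a, out of 19938 genes with a symbol of their own on the array. Each of the 9 is read by 1 probe set that carries its symbol alone. They were chosen by the log2 values of Clec4d, which were lower in the knockout hearts, with the other receptors added as its family, so every knockout and wild type value of the 9 genes is given as a description with no test.

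The hearts were MAFbx KO (3 arrays) and wild type (1 array), all from mice operated 1 week earlier by TAC (transverse aortic constriction, in which a narrowed aortic arch makes the left ventricle pump against high pressure). MAFbx, encoded by Fbxo32, is a muscle F-box protein that picks substrates for a ubiquitin ligase, and the study asked how its loss affects the response of the heart to that load. The labels do not say how the knockout was made, in which cells it acts, the strain, age or sex of the mice, or whether each array is a separate animal. Hearts without TAC were not analysed here. Total RNA of whole heart was measured, so fewer cells of a type and less RNA per cell cannot be told apart.

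Several of these receptors signal through a short activating motif, called ITAM, either in an adaptor protein (Fcer1g, Tyrobp) or in their own tail. The kinase Syk and the complex of Card9, Bcl10 and Malt1 then carry the signal to NF-kB and cytokine genes. Others carry an inhibitory motif that recruits phosphatases such as SHP-1 (Ptpn6), and a further group mainly takes up glycoproteins. In the loaded or injured heart such receptors sit on recruited monocytes and on tissue macrophages.

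The cardiomyocyte genes Myh6, Actc1 and Tnnt2 were far above the filter on all 4 arrays, as fits heart tissue. Fbxo32 read 5.65, 5.61 and 5.56 in MAFbx KO hearts 1, 2 and 3, against 7.54 in the wild type heart (RMA value, log2). Where the probes lie relative to the deleted part was not analysed here. Array medians over the 14955 genes kept after a filter on dim genes lay between 6.83 and 6.86. The arrays differed in sex-linked transcripts in a way that follows genotype only in part: Xist, the RNA of the inactive X chromosome, read 9.18, 9.52 and 3.20 in MAFbx KO hearts 1, 2 and 3, against 4.13 in the wild type heart. The Y-linked gene Eif2s3y read 3.31, 3.64 and 8.49 in the MAFbx KO hearts, against 8.57 in the wild type heart. Only MAFbx KO heart 3 therefore shares the sex-linked pattern of the wild type heart, and its difference from that heart is given apart where it bears on a result. The likeness is not limited to sex-linked genes. Over the 14955 genes heart 3 correlated more closely with the wild type heart (Pearson r 0.9838) than with MAFbx KO heart 1 (0.974) or 2 (0.9786). MAFbx KO hearts 1 and 2 correlated at 0.9864. The cause was not tested. The MAFbx KO mean minus wild type mixes genotype with this sex-linked difference, and the 2 cannot be told apart there.

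All 9 receptor genes read lower on each of the 3 MAFbx KO arrays than on the wild type array. Over all 19938 genes this held for 23.8%, but the choice of the receptors rests on that same contrast and nothing is read from the count. The median log2 difference of the 9 genes (mean of the MAFbx KO arrays minus wild type) was -0.96, from -1.87 for Clec4d to -0.33 for Clec10a, beside a median of 0.01 over all genes. For 6 of the 9 the mean was also at least 1.5-fold lower, as for 2.71% of all genes. Within the 9 genes the median difference from the wild type array was -1.18 for MAFbx KO heart 1, -0.79 for heart 2 and -0.63 for heart 3.

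**Figure D1:**
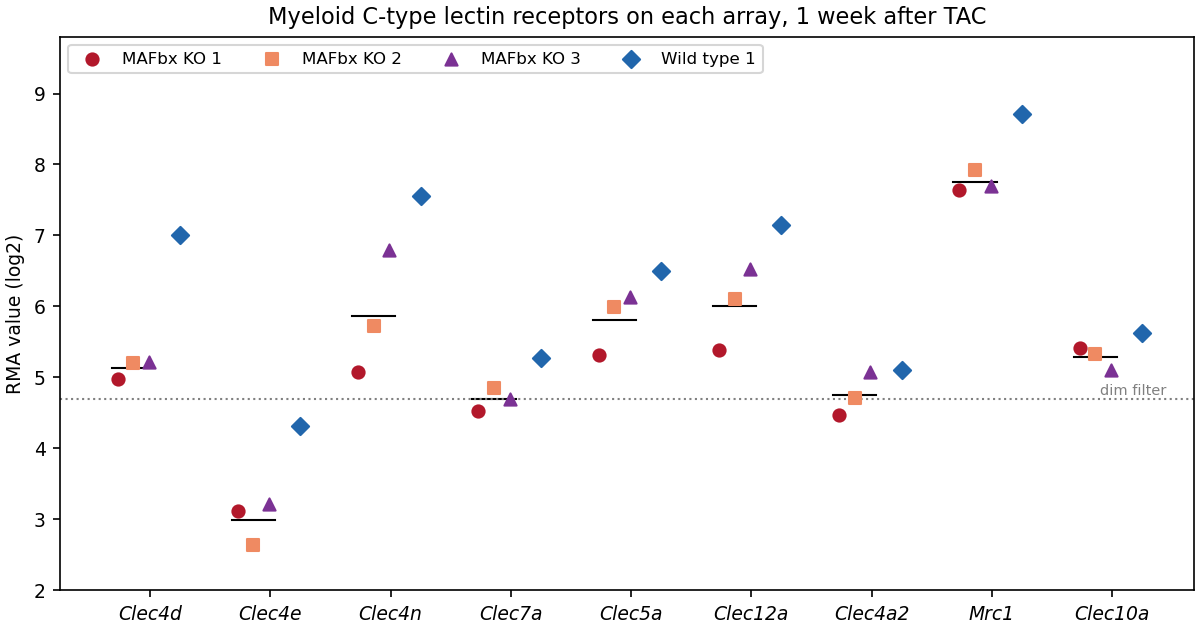
RMA value (log2 axis) of the 9 receptor genes on each array, with the 3 MAFbx KO arrays left of the wild type array and a bar at the MAFbx KO mean (n = 3; wild type n = 1). The wild type diamond lies above all 3 MAFbx KO points for every gene, and the dotted line is the filter on dim genes at 4.70.

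The activating receptors that pair with the adaptor Fcer1g came first in size of difference. Clec4d (MCL, also called CLECSF8) binds a cord lipid of mycobacteria and brings Clec4e to the cell surface. It read 4.98, 5.20 and 5.22 in MAFbx KO hearts 1, 2 and 3, against 7.0 in the wild type heart. The 3 MAFbx KO values lay within 0.24 of each other and 1.78 or more below the wild type value. Their mean was 5.13 ± 0.13 (SD, n = 3), 3.65-fold lower than the wild type value (log2 difference -1.87). The difference was nearly the same in MAFbx KO heart 3 alone (-1.78).

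Clec4e encodes Mincle, a receptor for the same cord lipid and for SAP130, a nuclear protein released from dead cells. It read 3.12, 2.63 and 3.21 in the MAFbx KO hearts, against 4.32 in the wild type heart. All 4 values lie under the filter on dim genes (4.70), where RMA compresses differences, so the gene was left out of the tested set and its log2 difference of -1.33 is of low reliability (-1.11 in heart 3 alone). The MAFbx KO mean was 2.99 ± 0.31 (SD, n = 3).

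Clec4n encodes Dectin-2, which binds mannans of fungi. It read 5.07, 5.73 and 6.79 in MAFbx KO hearts 1, 2 and 3, against 7.55 in the wild type heart. The MAFbx KO arrays spread over 1.72, the widest range among the 9 genes, with heart 3 nearest to the wild type heart. The mean was 5.86 ± 0.87 (SD, n = 3), a log2 difference of -1.69, and heart 3 alone differed by -0.76. The neighbours Clec4d and Clec4n thus had like mean differences, but the spread of Clec4n between knockout hearts was several times that of Clec4d.

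Clec7a and Clec5a are activating receptors that do not rely on Fcer1g in the same way. Clec7a encodes Dectin-1, a receptor for fungal beta-glucans with an ITAM-like motif in its own tail. It read 4.53, 4.85 and 4.70 in the MAFbx KO hearts, against 5.27 in the wild type heart. The MAFbx KO mean, 4.69 ± 0.16 (SD, n = 3), lies just under the filter, so this gene passed it through its wild type value. Its log2 difference was -0.58, and -0.57 in heart 3 alone.

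Clec5a encodes MDL-1, which signals through Tyrobp (DAP12) and Hcst (DAP10) and is known from studies of flavivirus infection and joint inflammation. It read 5.32, 5.99 and 6.13 in MAFbx KO hearts 1, 2 and 3, against 6.50 in the wild type heart. Heart 1 stood apart from the other MAFbx KO hearts, which lay nearer to the wild type value. The mean was 5.81 ± 0.43 (SD, n = 3), a log2 difference of -0.69, which became -0.44 without heart 1 and was -0.37 in heart 3 alone.

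The receptors with an inhibitory motif differed in size. Clec12a (MICL), a receptor for uric acid crystals that dampens myeloid activation, read 5.38, 6.10 and 6.52 in the MAFbx KO hearts, against 7.15 in the wild type heart. Its mean was 6.0 ± 0.58 (SD, n = 3), 2.22-fold lower (log2 difference -1.15), and heart 3 alone differed by -0.63. The gap between heart 3 and the wild type heart was about the size of the SD among the knockout hearts.

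Clec4a2 (DCIR), an inhibitory receptor of dendritic cells and monocytes, read 4.47, 4.71 and 5.08 in MAFbx KO hearts 1, 2 and 3, against 5.11 in the wild type heart. The highest MAFbx KO value was 0.03 below the wild type value, the narrowest gap of the 9 genes. The log2 difference of -0.36 became -0.22 without heart 1, and the mean of 4.75 ± 0.31 (SD, n = 3) lies close to the filter. That gap is smaller than the SD among the knockout hearts.

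Mrc1 and Clec10a are receptors for uptake. Mrc1 encodes the mannose receptor CD206, which clears glycoproteins with mannose ends and collagen fragments and marks resident and alternatively activated macrophages. It read 7.64, 7.92 and 7.70 in the MAFbx KO hearts, against 8.71 in the wild type heart. The MAFbx KO values lay within 0.28 of each other and 0.79 or more below the wild type value. The mean was 7.75 ± 0.15 (SD, n = 3), 1.94-fold lower (log2 difference -0.96), and heart 3 alone differed by -1.01.

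Clec10a encodes MGL1, a lectin for galactose and N-acetylgalactosamine on macrophages and dendritic cells. It read 5.42, 5.33 and 5.11 in MAFbx KO hearts 1, 2 and 3, against 5.62 in the wild type heart. Heart 3 was the lowest here, the reverse of the order seen for Clec4n, Clec5a, Clec12a and Clec4a2. The mean was 5.29 ± 0.16 (SD, n = 3), a log2 difference of -0.33, the smallest of the 9, and heart 3 alone differed by -0.51.

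**Figure D2:**
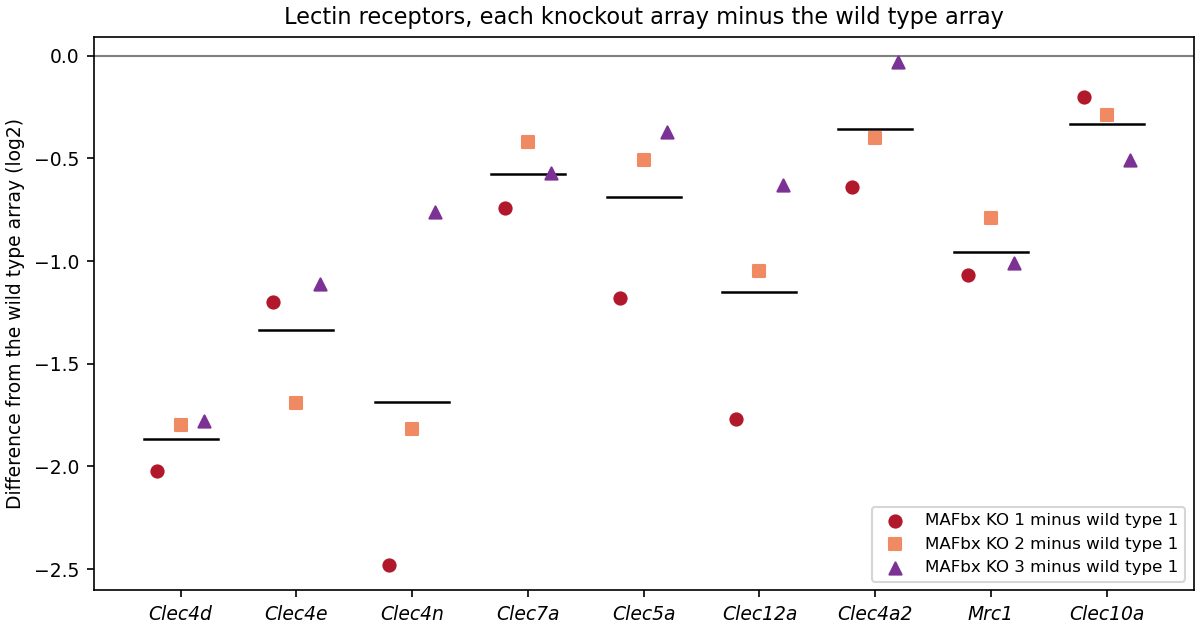
Difference of each MAFbx KO array from the wild type array (log2) for the 9 receptor genes, with a bar at the mean of the 3. The points of Clec4d, Clec7a, Mrc1 and Clec10a lie close together, whereas those of Clec4n run from -2.48 to -0.76 and those of Clec12a from -1.77 to -0.63.

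The 9 genes thus fall along the order of the knockout hearts in different ways. MAFbx KO heart 3 was the highest of the knockout arrays for 6 of the 9 genes (Clec4d, Clec4e, Clec4n, Clec5a, Clec12a and Clec4a2), against 34.4% of all genes. Heart 1 was the lowest for 7 of the 9, against 30.8% of all genes. For Clec7a and Mrc1 heart 2 was the highest, and for Clec10a heart 1 was. The gap between heart 3 and the lower of the other knockout hearts was 0.24 for Clec4d, where the order within the knockout hearts rests on small steps.

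Promoter sequences were matched by symbol for 7 of the 9 receptors in RefSeq (build GRCm38.p6). The 250 bases before the start of 4 of them are printed to show the letters of PU.1, the transcription factor that sets up myeloid gene expression: the adjacent genes Clec4d and Clec4e, Clec12a from another stretch of the same chromosome, and Mrc1 from a different chromosome. Capitals mark GAGGAA on either strand (TTCCTC where it lies on the other strand). All are written 5′ to 3′ in the direction of the gene. They cover chr6:123261857-123262106 (plus strand) for Clec4d, chr6:123289872-123290121 (minus strand) for Clec4e, chr6:129349994-129350243 (plus strand) for Clec12a and chr2:14229164-14229413 (plus strand) for Mrc1.
Clec4d: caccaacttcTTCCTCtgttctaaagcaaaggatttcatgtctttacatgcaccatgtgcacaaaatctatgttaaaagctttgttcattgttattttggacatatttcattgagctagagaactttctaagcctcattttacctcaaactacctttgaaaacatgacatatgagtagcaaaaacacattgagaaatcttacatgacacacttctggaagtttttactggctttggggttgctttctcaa
Clec4e: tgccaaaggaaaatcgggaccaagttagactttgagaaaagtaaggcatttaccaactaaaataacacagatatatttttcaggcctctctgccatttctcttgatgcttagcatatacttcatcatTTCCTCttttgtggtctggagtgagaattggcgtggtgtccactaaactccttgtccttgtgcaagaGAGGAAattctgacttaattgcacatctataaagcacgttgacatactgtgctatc
Clec12a: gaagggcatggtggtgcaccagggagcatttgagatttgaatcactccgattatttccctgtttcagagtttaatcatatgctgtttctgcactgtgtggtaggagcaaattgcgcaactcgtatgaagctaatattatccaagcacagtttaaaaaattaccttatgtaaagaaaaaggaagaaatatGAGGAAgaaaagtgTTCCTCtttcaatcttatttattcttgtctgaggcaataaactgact
Mrc1: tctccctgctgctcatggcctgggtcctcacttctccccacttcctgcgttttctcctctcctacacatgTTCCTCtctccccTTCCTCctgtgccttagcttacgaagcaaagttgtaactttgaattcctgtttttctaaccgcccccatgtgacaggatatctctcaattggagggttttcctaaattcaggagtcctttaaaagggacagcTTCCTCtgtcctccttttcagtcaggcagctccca

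At least 1 match of GAGGAA stood before 6 of the 7 genes (Clec4d, Clec4e, Clec5a, Clec7a, Clec12a and Mrc1), and Clec4a2 had no match in this window. Clec7a had more than 1 promoter entry, each with 1 match, and was counted as 1 gene. The share among all 32851 promoters of the same length was 23.3%. This share and those below count promoters, whereas the receptors are counted by gene. Mrc1 held 3 matches, Clec4e, Clec5a and Clec12a held 2 each, and Clec4d held 1, whose first base lies 240 bases before the start. The E-box CACATG stood in 4 of the 7 (Clec4a2, Clec4d, Clec5a and Mrc1), against 12.3% of all promoters. In Mrc1 a copy stands directly before a PU.1 match. TTGNNCAA, the C/EBP letters used, stood in 2 of the 7 (Clec12a and Clec4e) against 5.65%, and the AP-1 letters TGANTCA in 1 of the 7 (Clec12a) against 6.75%. Motifs were searched on both strands and no match overlapped another. A match describes these letters and is not a bound site.

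Spi1, the gene of PU.1, read 5.90, 6.18 and 6.33 in MAFbx KO hearts 1, 2 and 3, against 6.93 in the wild type heart. Its log2 difference of -0.79 (SE 0.22) did not pass limma's moderated test over the 14955 genes (adjusted p = 0.559). In that test 1 gene was called lower in the MAFbx KO hearts (0.00669% of the genes tested), Hmox1, named here after its value was seen, and 0 were called higher (0.0%). Fbxo32, the gene of the knockout, did not pass either (log2 difference -1.93, SE 0.17, limma adjusted p = 0.0547). Not passing therefore does not show that a gene is unchanged. At an unadjusted p under 0.05 there were 605 lower (4.05%) and 251 higher (1.68%). The spread in that test comes from the 3 MAFbx KO arrays alone, which may be technical, and the lone wild type array is assumed to vary as they do.

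Position set 7 of the 9 genes on chromosome 6, with Clec10a on chromosome 11 and Mrc1 on chromosome 2. In the GRCm38.p6 gene order, 9 protein-coding genes run side by side from Clec4a1 to Clec4e, and all 9 are lectin genes. Clec4n, Clec4d and Clec4e close that row as direct neighbours and had log2 differences of -1.69, -1.87 and -1.33. The other 6 genes of the row, Clec4a1, Clec4a3, Clec4a4, Clec4b1, Clec4a2 and Clec4b2, lay between -0.51 and -0.23. Of those, Clec4a4, Clec4b1 and Clec4b2 were under the filter on all 4 arrays.

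Clec4a1, the first gene of the row, read 5.86, 6.33 and 6.72 in the MAFbx KO hearts, against 6.81 in the wild type heart (log2 difference -0.51, SE 0.31, limma adjusted p = 0.923). Clec4a3 read 4.53, 4.94 and 5.33 in the MAFbx KO hearts, against 5.22 in the wild type heart, so that heart 3 was above the wild type value. Both kept the order of hearts 1, 2 and 3 seen for Clec4n. In a further row of 6 protein-coding genes from Clec12a to Clec7a, the differences ran from -1.15 for Clec12a to 0.38 for Clec1a, an endothelial lectin. Probe sets of close paralogs such as the Clec4a genes may share binding of related transcripts, which was not tested.

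**Figure D3:**
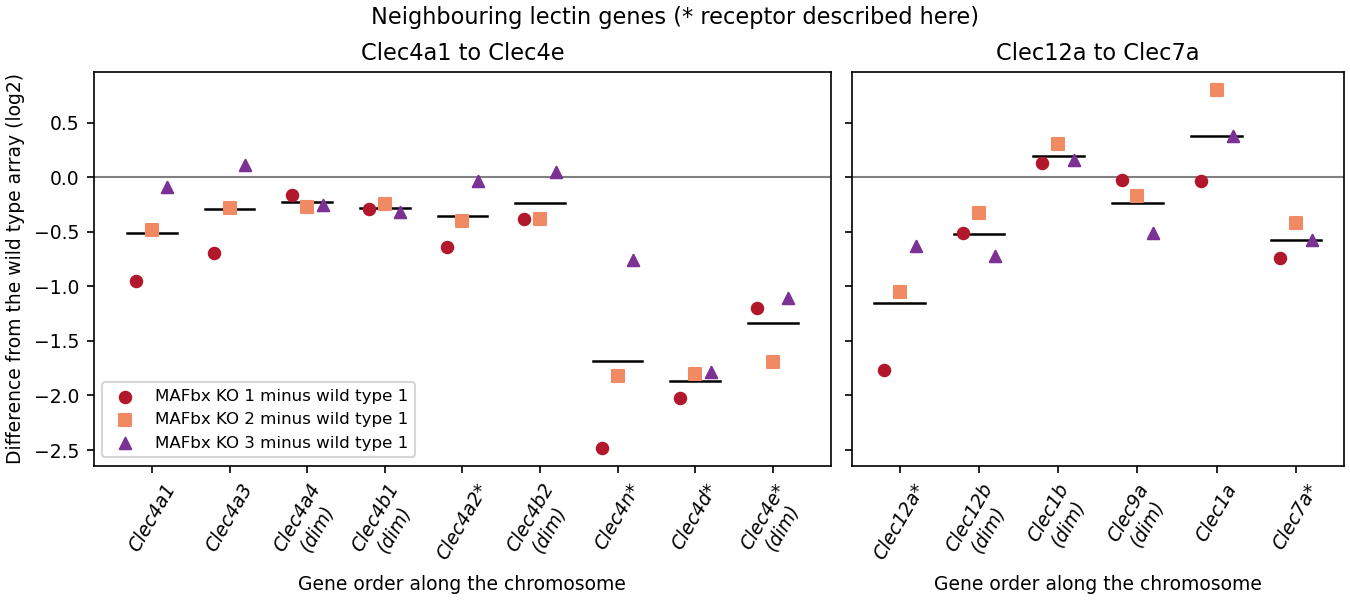
Difference of each MAFbx KO array from the wild type array (log2) for lectin genes in their order along chromosome 6, in the row from Clec4a1 to Clec4e and the row from Clec12a to Clec7a, with a bar at the mean of the 3. Clec4n, Clec4d and Clec4e lie below -1 on average, whereas Clec4a1 to Clec4b2 lie between -0.51 and -0.23 and Clec1a lies at 0.38.

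Other C-type lectin genes were compared from a list of 43, of which 41 were measured. Among the 20 over the filter, 0 passed limma in either direction. With an intensity trend in the variance 0 passed and 3 had an unadjusted p under 0.05. Without the trend 1 had an unadjusted p under 0.05 and was lower, beside 4.05% of all genes tested. The lone gene was Mgl2, the paralog of Clec10a, which read 6.33, 6.29 and 5.99 in the MAFbx KO hearts, against 6.72 in the wild type heart (log2 difference -0.52, SE 0.20, limma adjusted p = 0.819). Like Clec10a, it was lowest in heart 3. Over the 41 genes the median log2 difference was -0.11, with 14 lower and 10 higher than wild type in each MAFbx KO heart, where all genes gave 23.8% and 24.2%.

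Among those other lectins, Sele, the endothelial selectin that captures leukocytes, gave -0.51 (SE 0.22, limma adjusted p = 0.878), and -0.25 in heart 3 alone. Clec3b, tetranectin of the matrix, gave 0.63 (SE 0.27) with the same adjusted p, was higher in all 3 MAFbx KO hearts and gave 0.36 in heart 3 alone. Cd209a, a dendritic cell lectin of the DC-SIGN family, gave -0.23 (SE 0.18, limma adjusted p = 0.954), and -0.12 in heart 3 alone.

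The adaptors Fcer1g and Tyrobp were lower in each MAFbx KO heart, and neither passed the test. Fcer1g, the adaptor of Clec4d, Clec4e and Clec4n, read 9.39, 9.02 and 9.87 in MAFbx KO hearts 1, 2 and 3, against 10.50 in the wild type heart (log2 difference -1.07, SE 0.31, limma adjusted p = 0.579). Tyrobp, the adaptor of Clec5a, read 7.09, 7.15 and 7.75 in the MAFbx KO hearts, against 8.34 in the wild type heart (log2 difference -1.01, SE 0.28, limma adjusted p = 0.568). Both genes serve many other receptors of myeloid cells. Hcst, the other adaptor of Clec5a, was under the filter and read 4.67, 4.53 and 4.77 in the MAFbx KO hearts, against 4.61 in the wild type heart, so the groups overlapped.

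Further down the pathway the differences varied in sign and size. Syk, the kinase recruited by the ITAM, read 7.05, 7.11 and 7.13 in the MAFbx KO hearts, against 7.55 in the wild type heart (log2 difference -0.45, SE 0.17, limma adjusted p = 0.794). Card9 read 5.13, 5.13 and 5.44 in the MAFbx KO hearts, against 5.14 in the wild type heart, with overlap. Bcl10 gave a log2 difference of -0.10 (SE 0.18, limma adjusted p = 0.993) and Malt1 gave 0.20 (SE 0.19, limma adjusted p = 0.959), with -0.17 and 0.37 in heart 3 alone. Of the 2 phosphatases recruited by inhibitory receptors, Ptpn6 (SHP-1) stood at -0.74 (SE 0.24, limma adjusted p = 0.684), and at -0.43 in heart 3 alone. Ptpn11 (SHP-2), which many cell types express, stood at 0.45 (SE 0.21, limma adjusted p = 0.883), and at 0.23 in heart 3 alone. Vav1, an exchange factor of blood cells, stood at -0.83 (SE 0.25, limma adjusted p = 0.618), and at -0.48 in heart 3 alone.

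Counted together, 0 of the 16 tested signalling genes passed limma in either direction. At an unadjusted p under 0.05 there were 7, all lower in the MAFbx KO hearts, beside 4.05% of all genes tested (with the intensity trend 0 and 7). That 7 became 1 without MAFbx KO heart 1, 1 without heart 2 and 10 without heart 3. Over all genes tested the count likewise went from 856 to 504, 428 and 1582. Of the 17 measured, 9 were lower and 4 higher than wild type in each MAFbx KO heart, where all genes gave 23.8% and 24.2%. The median log2 difference was -0.39, and -0.17 in heart 3 alone.

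**Figure D4:**
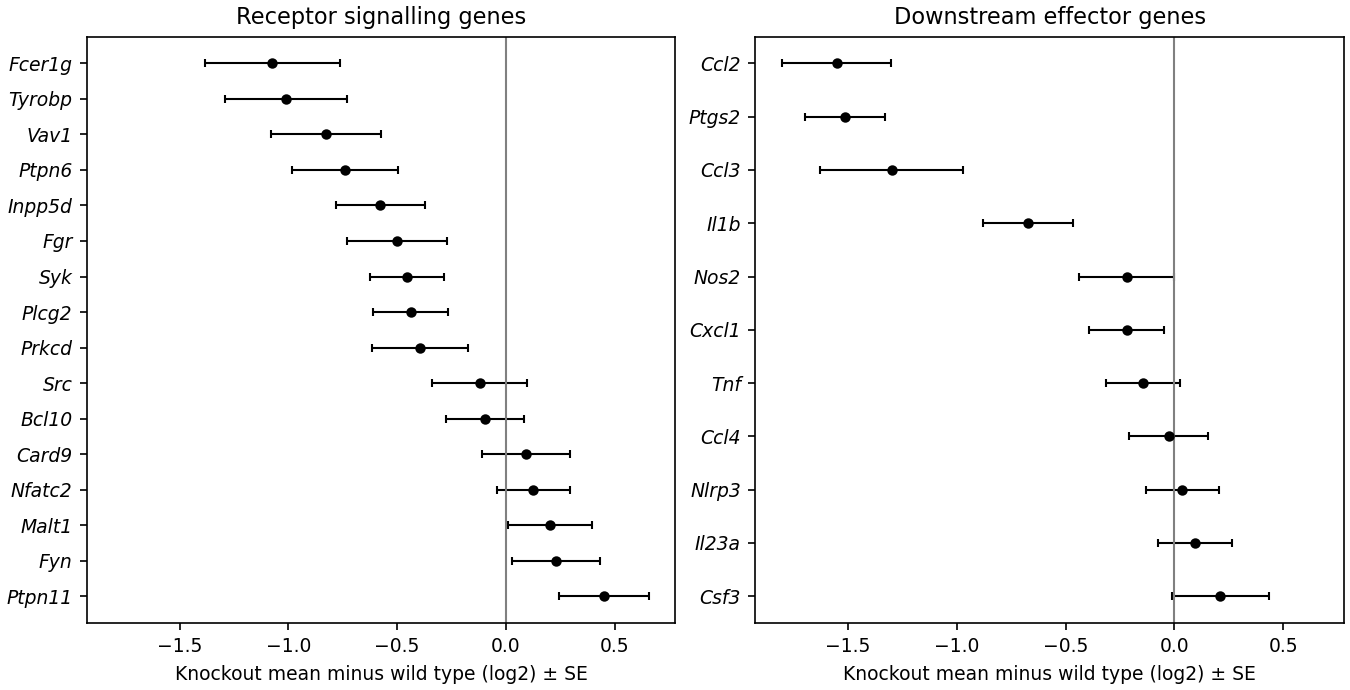
Log2 difference of the MAFbx KO mean from the wild type array, with the limma SE as bars, for the 16 tested signalling genes and the 11 tested effector genes. The adaptors Fcer1g and Tyrobp lie near -1, Card9, Bcl10 and Malt1 lie near 0, and Ccl2, Ptgs2 and Ccl3 lie below -1.

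Effector genes known to follow Syk and Card9 signalling gave 0 of 11 past the limma threshold in either direction, with 4 at an unadjusted p under 0.05, all lower, where all genes tested gave 4.05% (with the intensity trend 0 and 4). Ptgs2, inducible cyclooxygenase, read 6.42, 6.30 and 6.53 in the MAFbx KO hearts, against 7.93 in the wild type heart (log2 difference -1.51, SE 0.18, limma adjusted p = 0.0995). The chemokine genes Ccl2 and Ccl3 stood at -1.55 (SE 0.25, limma adjusted p = 0.296) and -1.30 (SE 0.33, limma adjusted p = 0.532), with -1.23 and -0.84 in heart 3 alone. Il1b stood at -0.67 (SE 0.21, limma adjusted p = 0.622), and at -0.51 in heart 3 alone, whereas Tnf stood at -0.14 (SE 0.17). Il6, Il10, Il12b, Cxcl2 and Csf2 were under the filter. Of the 16 measured, 8 were lower and 2 higher than wild type in each MAFbx KO heart, beside 23.8% and 24.2% of all genes. The median log2 difference was -0.18, or -0.07 in heart 3 alone. Many other pathways reach the same genes.

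Reported protein ligands gave 0 of 8 past the limma threshold. At an unadjusted p under 0.05 there was 1, lower in the MAFbx KO hearts, beside 4.05% of all genes tested (with the intensity trend 0 and 1). Sap130, the ligand of Mincle, read 7.90, 7.63 and 7.81 in the MAFbx KO hearts, against 7.89 in the wild type heart, with overlap. Ptprc, the leukocyte protein CD45, gave -1.07 (SE 0.29, limma adjusted p = 0.559), and -0.64 in heart 3 alone. The collagen gene Col1a1 read 10.10, 10.66 and 12.11 in MAFbx KO hearts 1, 2 and 3, against 11.58 in the wild type heart, with overlap (log2 difference -0.62, SE 0.66, and 0.53 in heart 3 alone). Vim, vimentin, also overlapped, with -0.39 (SE 0.32) and 0.11 in heart 3 alone. Anxa5 gave -0.48 (SE 0.27), and -0.24 in heart 3 alone. Over the 9 measured genes the median was -0.35, and 0.03 in heart 3 alone, with 3 lower in each MAFbx KO heart, where all genes gave 23.8%.

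Regulators and growth factor receptors of myeloid cells gave 0 of 14 past the limma threshold, with 4 at an unadjusted p under 0.05, all lower, beside 4.05% of all genes tested (with the intensity trend 0 and 4). Those 4 were Csf2rb, the shared chain of the receptors for GM-CSF and IL-3 (-0.81, SE 0.27), Spi1, Csf3r, the receptor for G-CSF (-0.68, SE 0.27), and Irf5, a factor of inflammatory macrophages (-0.65, SE 0.27). Their limma adjusted p ran from 0.559 for Spi1 to 0.867 for Irf5. In heart 3 alone Csf2rb, Spi1, Csf3r and Irf5 differed by -0.46, -0.60, -0.32 and -0.26. Over the 17 measured genes the median was -0.31, and -0.14 in heart 3 alone, with 9 lower and 2 higher in each MAFbx KO heart, where all genes gave 23.8% and 24.2%.

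Marker lists of the cell types that carry these receptors differed in how far they lay from the wild type array. No marker of monocytes, macrophages, resident macrophages, dendritic cells or neutrophils passed limma, with or without the intensity trend. At an unadjusted p under 0.05, 3 of 4 tested monocyte markers, 4 of 8 macrophage, 1 of 8 resident macrophage, 5 of 9 dendritic cell and 2 of 4 neutrophil markers were lower (with the trend 3, 3, 1, 5 and 2). Of all genes tested, 4.05% were lower at that p. Over all genes 23.8% were below wild type in each MAFbx KO heart, the share beside the counts that follow. Of 7 measured monocyte markers, 3 of them under the filter, 6 were below wild type in each MAFbx KO heart. The median difference of the 7 was -1.16, -0.93 and -0.57 in MAFbx KO hearts 1, 2 and 3. Ccr2, the monocyte receptor for Ccl2, had the largest difference of the list and read 4.74, 5.21 and 6.16 in the MAFbx KO hearts, against 7.39 in the wild type heart. Vcan, the brightest of the list, overlapped, with 7.39, 8.10 and 8.59 in the MAFbx KO hearts, against 8.55 in the wild type heart. Macrophage markers lay below the wild type array for 6 of 8 genes, with medians of -1.11, -0.74 and -0.36. The order of hearts 1, 2 and 3 in both medians is that of Clec4n, Clec5a, Clec12a and Clec4a2. It is not particular to these lists: the medians of the signalling, effector, regulator, ligand, other lectin and lymphocyte lists had the same order. Within the macrophage list Adgre1, Cd68 and Lyz2 kept it, but Csf1r, Cd14, Itgam and Fcgr1 were lowest in heart 2. Heart 2 was also lowest in the medians of the dendritic cell list (-0.61, -0.72 and -0.41) and the neutrophil list (-0.23, -0.42 and -0.12). In log2 of the summed level, monocyte markers spanned 8.24 to 9.22 in the MAFbx KO hearts, against 9.62 in the wild type heart, and macrophage markers 10.69 to 11.58 in the MAFbx KO hearts, against 11.94 in the wild type heart. Their part in the receptor values was not tested.

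Resident macrophage markers gave medians near 0. Of 8 genes, each MAFbx KO heart was below wild type for 2 and above it for 1, and the median difference was -0.11, 0.13 and -0.13 in MAFbx KO hearts 1, 2 and 3. Cbr2 read 8.29, 8.61 and 8.47 in the MAFbx KO hearts, against 8.43 in the wild type heart, and Lyve1 read 8.27, 8.40 and 7.71, against 8.11 in the wild type heart. F13a1, found in resident macrophages and monocytes, read 8.33, 8.47 and 8.26 in the MAFbx KO hearts, against 8.90 in the wild type heart. The summed level of the list was 10.51 to 10.78 in the MAFbx KO hearts, against 10.75 in the wild type heart (log2). Of the 8 markers 5 overlapped between the groups, where 23.8% of all genes lay below wild type and 24.2% above it in each MAFbx KO heart. Mrc1, often used beside these markers, was lower in each MAFbx KO heart. It was chosen with this contrast in view, so nothing is read from setting it beside them.

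Dendritic cell markers lay below the wild type array in each MAFbx KO heart for 7 of 9 genes, beside 23.8% of all genes. For 1 of the 9, Batf3, each MAFbx KO heart was above it (log2 difference 0.25), beside 24.2% of all genes. Xcr1 and Zbtb46 counted as below by gaps of only 0.02 and 0.03. H2-Aa read 8.07, 7.61 and 8.62 in the MAFbx KO hearts, against 9.28 in the wild type heart. Neutrophil markers lay below for 6 of 11, beside the same 23.8% of all genes, but 7 of the 11 were under the filter. S100a9 read 5.23, 5.11 and 5.56 in the MAFbx KO hearts, against 5.50 in the wild type heart. Summed levels were 9.71 to 10.48 in the MAFbx KO hearts, against 11.06 in the wild type heart, for dendritic cell markers, and 7.81 to 8.09 in the MAFbx KO hearts, against 8.30 in the wild type heart, for neutrophil markers (log2). Median differences in hearts 1, 2 and 3 were -0.15, 0.02 and 0.10 for lymphocyte markers and 0.09, 0.10 and -0.04 for cardiomyocyte markers. The part of these cell types in the receptor values was not tested either.

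**Figure D5:**
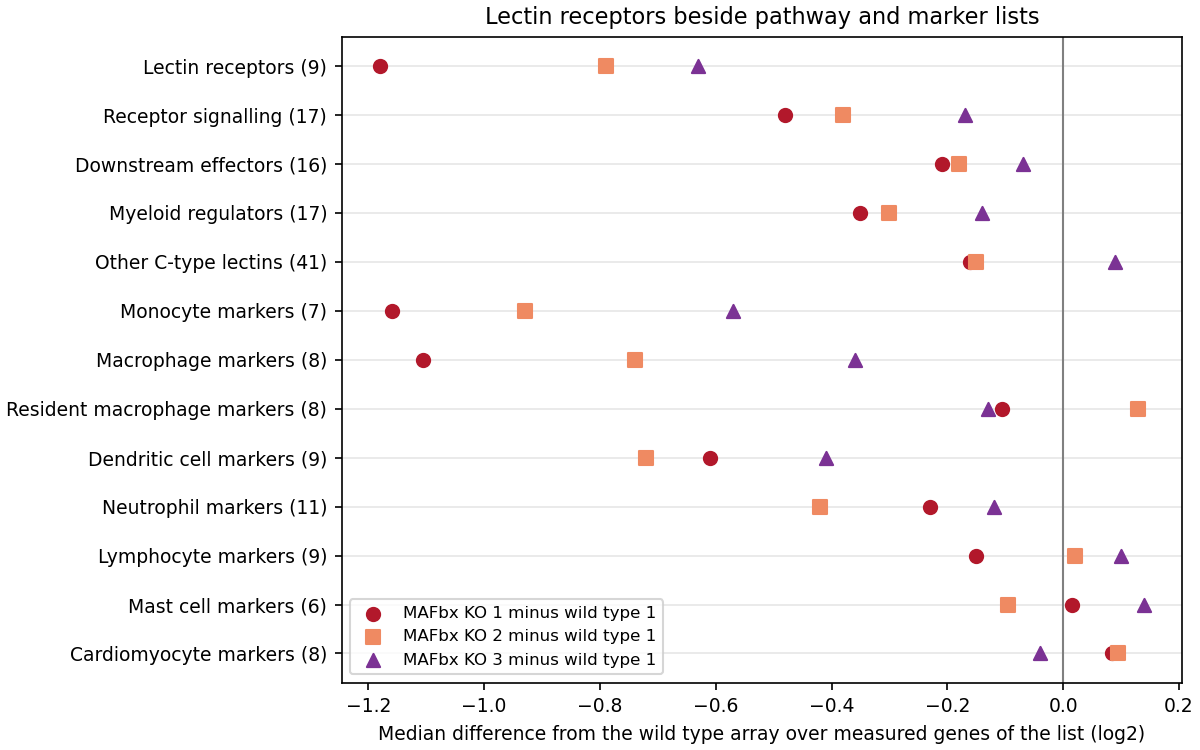
Median difference of each MAFbx KO array from the wild type array (log2) over the measured genes of each list, with the number of genes in brackets. The 9 receptors (-1.18, -0.79 and -0.63), monocyte markers (-1.16, -0.93 and -0.57) and macrophage markers (-1.11, -0.74 and -0.36) lie to the left in the same order of hearts. Receptor signalling, effectors, regulators, other lectins and lymphocyte markers have that order too. Resident macrophage and cardiomyocyte markers lie near 0.

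Genes with the pattern nearest to Clec4d over the 4 arrays were found by the Euclidean distance of the deviations from each gene's own mean, among the 14955 genes. They were Ccl9, a chemokine of myeloid cells (distance 0.13), AA467197 (0.16), Arg1, arginase 1 (0.22), Ms4a6d, a macrophage membrane protein (0.22), and Fbxo32 itself (0.25). Ccl9 read 6.71, 6.87 and 6.98 in the MAFbx KO hearts, against 8.59 in the wild type heart. The nearest receptor over the filter was Mrc1 at a distance of 0.81, ranked 87, followed by Clec12a at 0.89, ranked 123. Clec4e, under the filter, was not in this search, so its nearness to Clec4d is not ranked.

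Nearest to Mrc1 were Gpnmb, a glycoprotein of macrophages (distance 0.10), Ctps, CTP synthase (0.10), Tbxas1, thromboxane synthase (0.11), Npl (0.11) and Inhba, the activin A chain (0.13). Gpnmb read 6.13, 6.29 and 6.15 in the MAFbx KO hearts, against 7.08 in the wild type heart. Among the receptors over the filter Clec7a was nearest to Mrc1, at 0.34 and rank 88. These distances describe 4 arrays and carry no test.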

How the data were processed

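Values of 4 heart arrays (Affymetrix Mouse Gene ST, biotin-labelled cRNA) were deposited on the log2 scale. The authors ran RMA in Affymetrix Expression Console, per the submitters' processing notes, with no version given in these sources. It fits the arrays to nearly the same distribution and compresses dim values. Precision is limited by having 4 arrays. Of 35556 probe sets, 21789 had 1 gene symbol in the platform annotation, 1621 several and 12146 none listed. The brightest was kept for each of 999 genes with several, giving 19938 genes, of which 14955 exceeded the 25th percentile of gene means (4.70) and were tested.

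MAFbx KO minus wild type was tested in limma 3.58.1 under R 4.3.3 (eBayes, two-sided, Benjamini-Hochberg over all genes tested, threshold 0.05, 2 residual and 5.01 prior degrees of freedom), after the fit was tested on simulated data. With 1 array against 3, exact permutation of the arrays could give no p under 0.25. Named genes are the 9 receptors, Fbxo32, set pathway genes, the 4 largest differences per list and the 5 nearest patterns to Clec4d and to Mrc1. The 9 genes and all lists were chosen with earlier results of these data known. List genes that no probe set names alone were left out. Mast cell and erythroid markers gave median differences of 0.005 and -0.03. Alternatives were renewed quantile normalization, median centring, other filters, averaged probe sets, a variance trend and leaving out each MAFbx KO array. Promoters are from RefSeq tables (GRCm38.p6).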

Additional observations from a re-analysis of the deposited data

How the results depend on the processing

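All 9 receptor genes stayed below the wild type array under renewed quantile normalization and median centring. Leaving out a MAFbx KO array, or taking heart 3 alone, could not change this, because every MAFbx KO value already lay below wild type. Averaging probe sets could not change it either, because each receptor has 1 probe set. All 63 single differences kept their sign, but for these reasons most of them could not do otherwise. With genes under the median level left out, 3 receptors remained with unchanged values, so all 3 lay below. The median difference was -1.04 to -0.84 when 1 MAFbx KO array was left out, and -0.63 in heart 3 alone, the knockout heart with the sex-linked pattern of the wild type heart. The number of genes past the limma threshold, 1 as reported, was 0 with quantile normalization (876 at an unadjusted p under 0.05), 8 with each array centred on its median, 0 without the filter (1045), 2 with genes under the median left out, 7 with an intensity trend, and 0 without any 1 MAFbx KO array (428 to 1582). The cause was not tested. All 5 pathway lists had 0 genes past the threshold in each of these fits. At an unadjusted p under 0.05, leaving out 1 MAFbx KO array gave 1 to 10 signalling genes (7 with all arrays), 2 to 4 effectors (4), 0 to 4 other lectins (1), 1 to 7 regulators (4) and 0 to 4 ligands (1), with the highest count without heart 3 in each, shared for effectors with heart 1 left out. Over all genes tested the highest count, 1582, was also the one without heart 3. No paired analysis was possible because the labels give no pairing of wild type and MAFbx KO arrays. The depth of an array has no count. Dim values limit Clec4e, which lies under 4.70 on all 4 arrays, and Clec7a and Clec4a2, whose MAFbx KO means lie near 4.70.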
